A study of Mus musculus with 2 samples.

Results

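Border macrophages are the resident macrophages of the brain's outer coverings and of the spaces around its vessels. The barcodes described here are those border macrophages of the mouse leptomeninges whose share of MHC class II transcripts reached a set threshold, called class II barcodes below. A barcode stands for 1 cell in droplet sequencing, and a UMI (unique molecular identifier) for 1 captured transcript. Barcodes entered with 400 genes or more and with mitochondrial genes at no more than 10% of UMIs. A barcode counted as a border macrophage with at least 4 UMIs in sum of Mrc1, Ms4a7, Pf4, Cbr2, Stab1 and F13a1 and at most 1 UMI in sum of the microglia genes P2ry12, Tmem119 and Siglech. Class II barcodes were chosen by the share of Cd74, H2-Aa, H2-Ab1 and H2-Eb1 in a barcode's UMIs, which had to be 0.3% or more. The values of these 4 genes, of the border genes and of the microglia genes therefore chose the barcodes. By this rule there were 59 class II barcodes, 35 in library R1 and 24 in library R2, of 1073 border macrophages, 6026 kept barcodes and 14019 barcodes in all. The other 1014 border macrophages, 444 in R1 and 570 in R2, lay under 0.3% and are called low class II border macrophages. Of these, 308 in R1 and 437 in R2 had no UMI of the 4 class II genes, and the others held some.

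The tissue was leptomeninges peeled by hand from the cerebral hemispheres of Pdgfra-H2BGFP mice of both sexes, aged 3 months, and both libraries belonged to 1 group, for which the labels name no treatment. Pdgfra-H2BGFP is a reporter allele that marks the nuclei of Pdgfra-expressing cells, and every library carried it. The labels do not say whether R1 and R2 came from separate animals. The fit took out each gene's level difference between the libraries. The p-values therefore rest only on how far class differences varied between these libraries, over all classes fitted, which may be technical. UMI counts were summed per library and class, so the spread among the barcodes of a class was not measured. All comparisons are between classes of barcodes within the same 2 libraries.

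MHC class II molecules are heterodimers of an alpha and a beta chain that show peptides from ingested proteins to CD4+ T cells. The invariant chain, encoded by Cd74, holds the groove shut until cathepsins cut it down, and H2-DM then exchanges the remaining fragment for a peptide. Transcription of these genes depends on the coactivator Ciita, which is recruited by factors bound to the X and Y boxes of their promoters. In the meninges, class II has been used to divide border macrophages into a class II high kind and a LYVE1-positive, class II low kind.

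Promoters of class II genes are shown because the same short boxes recur in several of them. RefSeq windows of build GRCm38.p6, from 250 bases before to 50 bases after a gene's start, were looked up for 10 class II genes and found for 7 of them, in 8 windows, all on chromosome 17. Capitals mark the Y box core GATTGG and the X box letters, which are AAC, any 2 bases and ATGATG, searched on both strands. Their letters were chosen with these promoters in view. H2-Aa encodes the I-A alpha chain and lies on the minus strand at chr17:34287774-34288073, H2-Eb1 encodes the I-E beta chain and lies on the plus strand at chr17:34305617-34305916, and the H2-DM beta chain genes H2-DMb1 and H2-DMb2 lie on the plus strand at chr17:34152941-34153240 and chr17:34144999-34145298. Each sequence runs 5′ to 3′ on its gene's strand.
H2-Aa: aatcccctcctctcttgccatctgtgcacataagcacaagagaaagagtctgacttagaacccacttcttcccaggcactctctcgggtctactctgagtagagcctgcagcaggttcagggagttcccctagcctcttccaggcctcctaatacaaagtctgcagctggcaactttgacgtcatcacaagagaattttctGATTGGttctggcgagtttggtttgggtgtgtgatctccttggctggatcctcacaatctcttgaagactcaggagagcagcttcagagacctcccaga
H2-Eb1: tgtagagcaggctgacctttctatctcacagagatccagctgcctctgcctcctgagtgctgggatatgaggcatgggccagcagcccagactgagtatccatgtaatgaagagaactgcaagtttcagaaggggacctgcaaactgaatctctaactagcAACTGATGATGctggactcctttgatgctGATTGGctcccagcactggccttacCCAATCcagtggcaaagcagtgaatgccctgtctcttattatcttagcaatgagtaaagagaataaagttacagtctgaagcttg
H2-DMb1: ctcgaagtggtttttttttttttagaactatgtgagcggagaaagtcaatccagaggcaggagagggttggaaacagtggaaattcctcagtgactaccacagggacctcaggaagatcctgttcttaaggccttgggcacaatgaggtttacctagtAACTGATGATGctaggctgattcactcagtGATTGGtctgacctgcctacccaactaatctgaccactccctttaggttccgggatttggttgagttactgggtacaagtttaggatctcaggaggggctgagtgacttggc
H2-DMb2: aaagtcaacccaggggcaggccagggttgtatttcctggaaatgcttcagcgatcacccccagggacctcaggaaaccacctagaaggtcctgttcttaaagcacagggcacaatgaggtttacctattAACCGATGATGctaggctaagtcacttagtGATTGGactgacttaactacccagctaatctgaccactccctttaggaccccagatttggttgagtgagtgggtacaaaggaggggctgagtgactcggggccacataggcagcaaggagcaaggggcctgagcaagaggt
The Y box letters occurred in 7 of the 8 windows, and both sets of letters in 4. H2-DMa had 2 windows, neither with the X box letters, and 1 of them without the Y box letters as well. In its other window the Y box letters lay 199 bases before the gene's start. H2-Aa and H2-Oa held the Y box letters alone, and Cd74, H2-Ab1 and Ciita had no window. Among all 32851 RefSeq mouse promoter windows of that length, 16.1% held the Y box letters, 0.137% the X box letters and 11 windows (0.0335%) held both. In H2-DMb1 and H2-DMb2 the Y box followed the X box after 19 bases, in H2-Eb1 after 18 and in H2-Ob after 16. A match is a run of letters and not a measured binding site.

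The counts behind the class II barcodes were small. Their summed UMIs came to 132922 in R1 and 66784 in R2, so that 1 UMI equals 7.52 and 14.97 CPM (counts scaled to the class's total UMIs), and 3 UMIs, the most that a count of 0 allows, equal 22.6 and 44.9 CPM. Low class II border macrophages held 1114466 and 1202848 UMIs. Median UMIs per barcode were 1855 and 1281 in class II barcodes and 1453.5 and 1227 in low class II ones. In the class II barcodes, 9 barcodes of R1 and 4 of R2 had over 5000 UMIs, and these held 66.1% and 50.3% of the class's UMIs. The libraries shared 93 barcode sequences, none of them a class II barcode in both, and 1 class II barcode of each library had a sequence that the other library also held.

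The 4 class II genes that chose the barcodes are given as a description. Cd74, the invariant chain, stood at 18928 and 25455 CPM in the class II barcodes of R1 and R2, against 162 and 174 CPM in low class II border macrophages. H2-Ab1, the I-A beta chain, stood at 8434 and 9643 CPM in class II barcodes, against 21.5 and 24.1 CPM in low class II ones. Its partner H2-Aa stood at 6425 and 8849 CPM in class II barcodes, against 24.2 and 28.3 CPM in low class II ones. H2-Eb1 stood at 8411 and 11200.3 CPM in class II barcodes, against 28.7 and 29.9 CPM in low class II ones. For all 4 genes both class II values lay far above both low class II values, as the rule requires. Microglia, taken as barcodes with at least 3 UMIs of the microglia genes and at most 1 of the border genes, had 447 and 53.7 CPM of Cd74. All 4 genes were seen in 19 class II barcodes of R1 and 13 of R2, and only 1 of the 4 in 3 and 2 barcodes. Of the border genes of the rule, Mrc1, the mannose receptor, stood at 1166 and 1303 CPM in class II barcodes, against 2692 and 2995 CPM in low class II ones. Pf4, a platelet-type chemokine, stood at 1068 and 1378 CPM in class II barcodes, against 3944 and 4607 CPM in low class II ones. Ms4a7, a membrane protein typical of border macrophages, stood at 406 and 524 CPM in class II barcodes, against 992 and 1035 CPM in low class II ones.

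**Figure D1:**
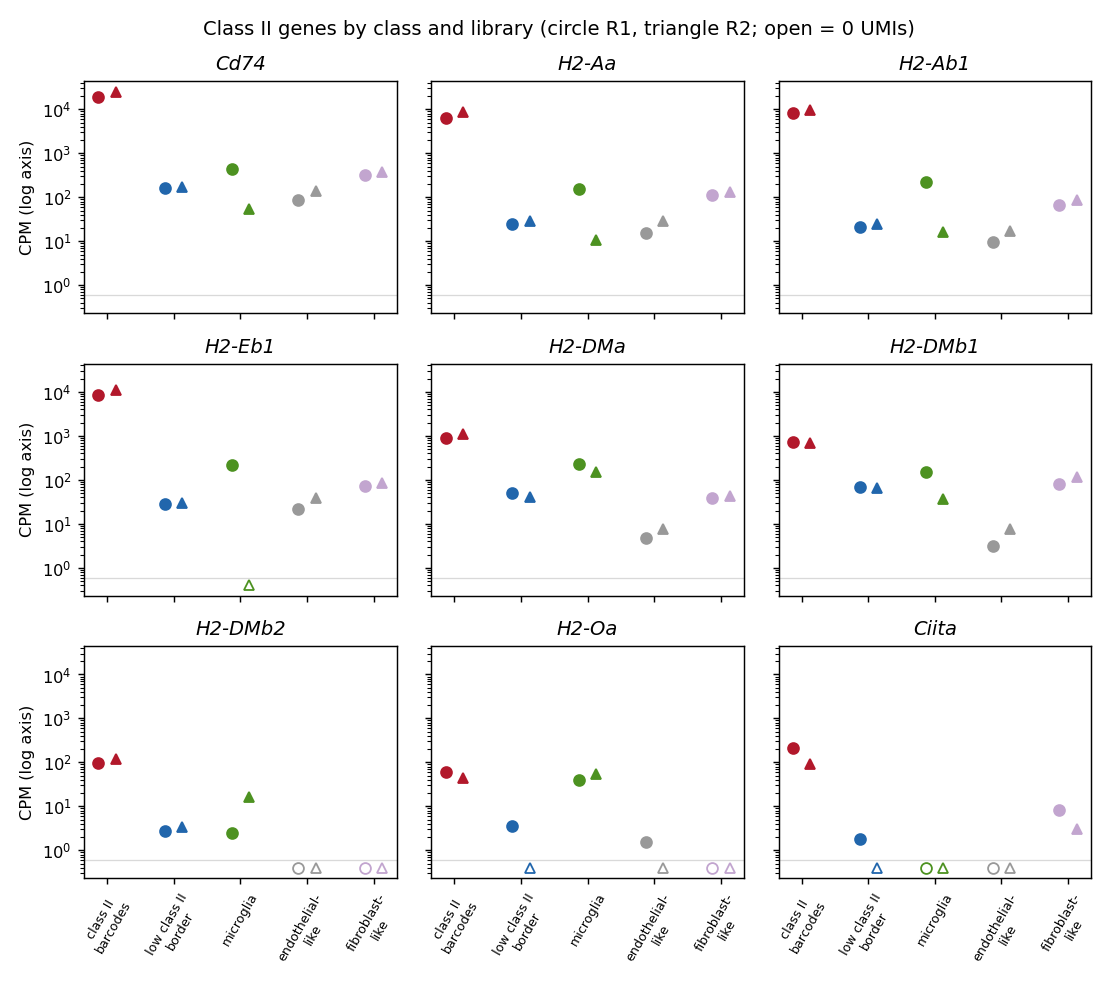
Levels of 9 class II genes in CPM (log axis) in class II barcodes, low class II border macrophages, microglia, endothelial-like and fibroblast-like barcodes, 1 point per library (circle R1, triangle R2, open symbols at the foot for 0 UMIs). Class II barcodes were the highest class for each gene in both libraries except H2-Oa, where R2 microglia stood at 53.7 CPM and R2 class II barcodes at 44.9 CPM; the upper 4 genes from Cd74 to H2-Eb1 were used to choose the barcodes.

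Class II barcodes made up 7.31% of the border macrophages of R1 (exact Clopper-Pearson 95% interval 5.14 to 10.02). They made up 4.04% in R2 (2.61 to 5.95), and the mean was 5.67% ± 2.31 (SD, n = 2). Intervals and floors cover counting error only. The rule's threshold cut through a range with no gap. The 3 barcodes nearest above it had 0.310, 0.313 and 0.316% class II UMIs in R1 and 0.304, 0.333 and 0.399% in R2, and the 3 nearest below had 0.298, 0.290 and 0.275% in R1 and 0.299, 0.296 and 0.272% in R2. Between 0.15 and 0.3% lay 32 and 22 border macrophages, and between 0.3 and 0.6% lay 12 and 9. With as few as 2 or 3 class II UMIs in some of these barcodes, their side of the threshold rests on single transcripts.

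Within the class II barcodes, the class II share fell into a low and a high range. Of the 59, 30 had 0.3 to 1% class II UMIs (18 in R1 and 12 in R2), 9 had 1 to 4% (5 and 4) and 20 had 4% or more (12 and 8). The 20 barcodes of the high range held 93.1% of the class's class II UMIs in R1 and 94.6% in R2. They also held 55.9 and 64.3% of all the class's UMIs, so the class's summed levels lean on them. Among border macrophages 3.76% of R1 (2.24 to 5.87) and 2.02% of R2 (1.05 to 3.50) lay between 0.3 and 1%, against 3.98% (2.48 to 6.03) and 5.49% (3.47 to 8.19) of fibroblast-like barcodes and 0.704% (0.0854 to 2.52) and 0.376% (0.00952 to 2.08) of endothelial-like barcodes. Median UMIs were 1512 and 1227 in border macrophages, 2653 and 2079 in fibroblast-like and 1510.0 and 1464 in endothelial-like barcodes. The share of border macrophages in the low range did not exceed that of fibroblast-like barcodes. It lay above that of endothelial-like barcodes, whose depth was closer, with intervals that overlapped. H2-DMa, which the rule did not use, stood at 304 CPM in R1 and 120.4 CPM in R2 in the low range, on 15 and 2 UMIs, against 51.1 and 41.6 CPM in low class II border macrophages. Where the class II UMIs of the low range came from was not tested. At 4% or more lay 2.51% (1.30 to 4.34) and 1.35% (0.583 to 2.64) of border macrophages, 0 of 527 and 0 of 401 fibroblast-like barcodes, which allows up to 0.569 and 0.748%, and 0 of 284 and 0 of 266 endothelial-like barcodes, which allows up to 1.06 and 1.13%. Of the microglia, 1 of 116 in R1 and 0 of 60 in R2 lay there.

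The makeup of the class II UMIs also differed between the ranges. Cd74 made up 43.4 and 45.7% of the class II UMIs in the barcodes at 4% or more, 71.0 and 65.1% in those at 0.3 to 1%, and 68.6 and 67.9% in low class II border macrophages. It made up 65.1 and 62.4% in endothelial-like barcodes and 55.9 and 55.1% in fibroblast-like barcodes, both between the low and the high range. In microglia it made up 42.6% in R1, on 182 Cd74 UMIs, and 66.7% in R2, on 10. H2-Ab1 made up 20.8 and 17.8% at 4% or more, 4.90 and 8.43% at 0.3 to 1%, and 9.09 and 9.42% in low class II border macrophages.

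**Figure D2:**
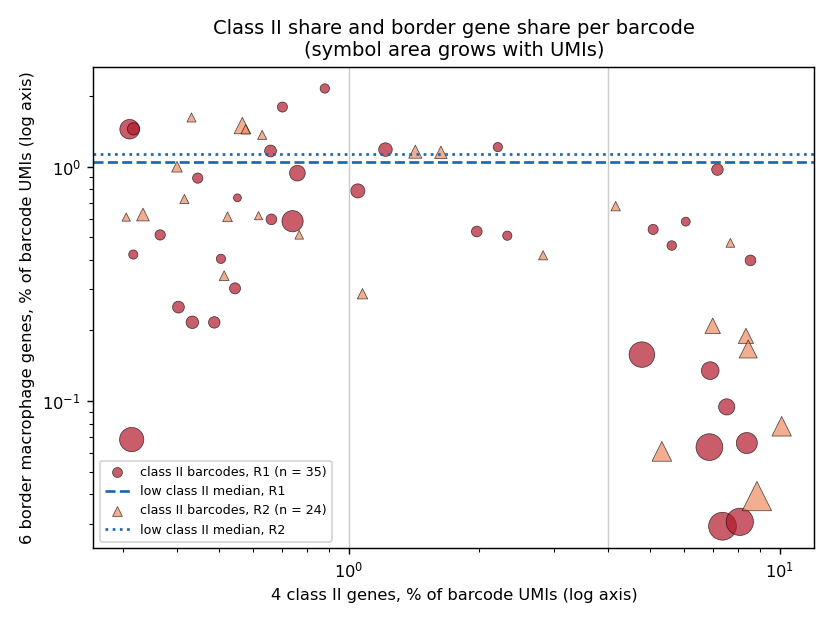
Each of the 59 class II barcodes by the share of its UMIs from the 4 class II genes (x, percent, log axis) and from the 6 border genes (y, percent, log axis), with symbol area growing with UMIs and lines at the medians of the low class II border macrophages, 1.05% in R1 and 1.13% in R2. All 20 barcodes at 4% or more lay under the lines, and no barcode lay between 2.82 and 4.16%.

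The data went only partly with the name border macrophage. In the barcodes at 4% or more, the 6 border genes made up a median of 0.146% of UMIs in R1 and 0.178% in R2, against 1.05 and 1.13% in low class II border macrophages, and the barcodes met the rule with 4 to 18 and 4 to 9 border UMIs out of medians of 4712 and 4607.5 UMIs. Their Mrc1 stood at 592 and 396 CPM, against 2692 and 2995 CPM in low class II border macrophages, and their Pf4 at 229 and 442 CPM, against 3944 and 4607 CPM. The border markers that the rule did not use were low as well. Apoe, the main apolipoprotein of brain macrophages, stood at 6044 and 14312 CPM, against 45657 and 47136 CPM, and Lyve1 and Folr2, 2 markers of resident macrophages, had 0 UMIs in both libraries, which allows up to 40.4 and 69.8 CPM. In these barcodes Ccr2, the receptor that brings monocytes out of the blood, stood at 1050.0 and 954 CPM, against 53.8 and 14.96 CPM in low class II border macrophages. Cd209a, a lectin of monocyte-derived and conventional type 2 dendritic cells, stood at 1077 and 535 CPM, against 163 and 203 CPM, with UMIs in 5 barcodes of R1 and 1 of R2.

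In the barcodes at 0.3 to 1%, the border genes lay closer to the low class II levels. Mrc1 stood at 1967 and 2830.1 CPM and Apoe at 40464 and 55218 CPM. Stab1, a scavenger receptor of the rule, stood at 1399.5 and 1867 CPM, against 1904 and 2238 CPM in low class II border macrophages. Pf4 stood at 1683 and 3011 CPM in this range. Lyve1 stood at 81.1 and 120.4 CPM, on counts of 4 and 2 UMIs, against 364 and 698 CPM in low class II border macrophages. A single R1 barcode of this range stood apart, with 10209 UMIs, 0.313% class II UMIs, 7 border UMIs and 101 UMIs of monocyte markers. All 37 Plac8 UMIs of the class, a monocyte marker, were in 1 R1 barcode of this range. The 9 barcodes at 1 to 4% had Apoe at 57091 and 48022 CPM and Mrc1 at 1499.6 and 3192 CPM. The class II barcodes are therefore called by their rule, and no other cell type name is given.

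**Figure D3:**
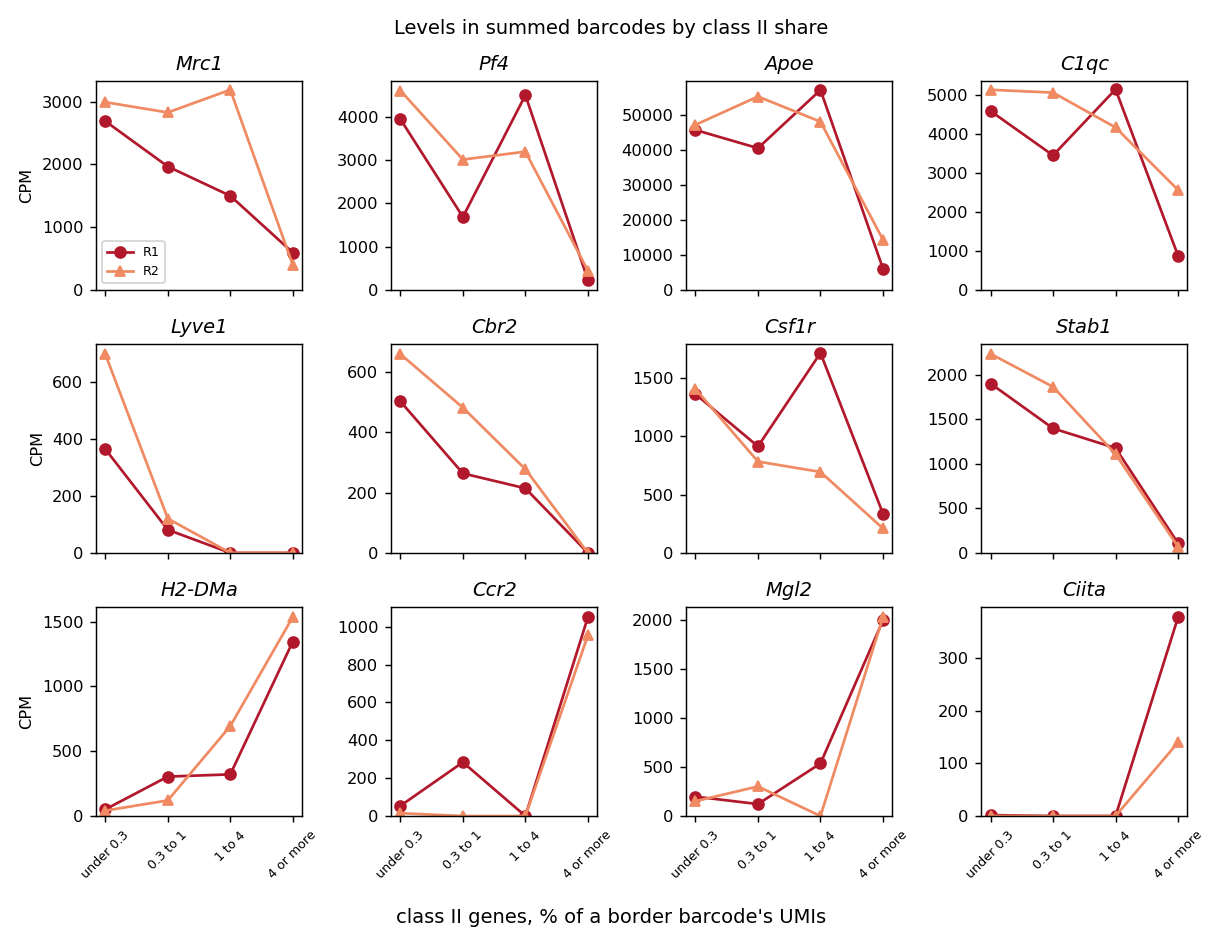
Levels in CPM of 12 genes in border macrophages summed by class II share (under 0.3%, 0.3 to 1%, 1 to 4%, 4% or more), 1 line per library. The border genes of the upper 2 rows were lowest in both libraries at 4% or more, apart from Lyve1, which was at 0 from 1% on, and the 4 genes of the bottom row were highest there.

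Marker lists of other cells went in both directions. Those of dendritic cells, monocytes, B cells and oligodendrocytes stood higher in class II barcodes than in low class II ones in both libraries. Those of endothelial, fibroblast, mural, neuronal, astrocyte and erythroid cells stood lower in both, the neuronal list in R2 only slightly (134.8 against 139.7 CPM). Of 14 dendritic cell markers, 10 were detected in the class II barcodes of R1 and 6 in those of R2, with a summed level of 1196 and 554 CPM, against 289 and 307 CPM in low class II border macrophages. Xcr1, Clec9a, Ccl22 and Ffar2 were at 0, and Flt3 and Zbtb46, which define conventional dendritic cells, had 4 and 8 UMIs in R1 and 0 in R2. Of 10 monocyte markers, 7 were detected in R1 and 3 in R2, with 2407 and 913 CPM, against 636 and 320.1 CPM, and Chil3, F10 and Vcan were at 0. B cell markers summed to 271 and 209.6 CPM, against 154 and 125 CPM, with Ms4a1, Pax5 and Fcmr among the markers at 0. Ighm alone held 218 and 165 CPM of this sum, and Cd209a alone 655 and 404 CPM of the dendritic cell sum. In microglia the B cell list summed to 364 and 413 CPM and the dendritic cell list to 565 and 617 CPM. T and NK cell markers summed to 0 and 44.9 CPM, against 1.79 and 352 CPM, with 8 of 10 markers at 0. The 0 in R1 allows up to 22.6 CPM, so no direction is given for R1. Gzma alone held 239 of the 352 CPM, and 1 of the 570 low class II barcodes of R2 had 2 or more UMIs of this list. Microglia markers summed to 647 and 1018 CPM, against 668 and 648 CPM, with 7 of 8 detected and Sall1 at 0. At least 2 UMIs of dendritic cell or monocyte markers were present in 12 of the 20 barcodes at 4% or more, in 2 of the 9 at 1 to 4% and in 6 of the 30 at 0.3 to 1%. Barcodes with at least 1% Malat1, a nuclear RNA that is scarce in barcodes without a nucleus, made up 40.0 and 29.2% of class II barcodes, against 23.2 and 21.4% of low class II ones. Beyond the values without such barcodes, the part of these markers and of depth in the differences below was not tested.

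Gene expression in the class II barcodes was set against low class II border macrophages in UMI counts summed per library (n = 2 each), with edgeR's quasi-likelihood test over 9835 genes and the 13 genes of the rule left out. At an adjusted p under 0.05, 291 genes (2.96% of those tested) were higher and 188 (1.91%) lower in class II barcodes, with a median log2 fold change over all genes of -0.23. Fewer genes passed in subsets of the barcodes, which also hold fewer UMIs. Without barcodes over 5000 UMIs, which left 46 class II barcodes, 18 genes (0.198%) were higher and 48 (0.527%) lower, and 16 and 35 of these were among the first calls. Without barcodes that had 2 or more UMIs of dendritic cell or monocyte markers, which left 39, 10 (0.0994%) were higher and 158 (1.57%) lower. With the border genes at 0.3% of UMIs or more, which left 41, 15 (0.15%) were higher and 168 (1.68%) lower. With every barcode thinned to 500 UMIs, 7 (0.155%) were higher and 104 (2.3%) lower. The tallies of gene lists in these subsets, given below, stand beside these shares.

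Genes that load peptide onto class II molecules were higher in class II barcodes. H2-DMa, the H2-DM alpha chain, stood at 888 CPM in R1 and 1093 CPM in R2 in the class II barcodes, against 51.1 and 41.6 CPM in low class II border macrophages (log2 fold change 4.42 ± 0.22 (SE), adjusted p = 6.88e-31). Both class II libraries lay above both low class II ones by more than an order of magnitude. H2-DMb1, its partner, stood at 722 CPM in R1 and 689 CPM in R2 in the class II barcodes, against 69.1 and 64.8 CPM in low class II border macrophages (log2 fold change 3.44 ± 0.24 (SE), adjusted p = 3.17e-21). Both genes also passed without barcodes over 5000 UMIs (log2 fold changes 3.16 and 2.50), without dendritic cell and monocyte markers (2.64 and 1.66) and with every barcode thinned to 500 UMIs (2.70 and 2.01). H2-DMa increased with the class II share, from 51.1 and 41.6 CPM under 0.3% to 304 and 120.4 CPM at 0.3 to 1%, 321 and 694 CPM at 1 to 4% and 1346 and 1536 CPM at 4% or more. In barcodes thinned to 1000 UMIs, H2-DMa was seen in 55.2% of class II barcodes of R1 (35.7 to 73.6) and 31.2% of R2 (11.02 to 58.7), against 4.57% (2.58 to 7.43) and 3.87% (2.13 to 6.404) of low class II border macrophages, 0 of 221 and 0.515% of endothelial-like and 3.52 and 5.23% of fibroblast-like barcodes. Unthinned, the class II values were 62.9 and 45.8%.

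Further members of the list of class II processing and regulation genes passed in both directions. Ciita, the coactivator, stood at 211 CPM in R1 and 89.8 CPM in R2 in the class II barcodes, against 1.79 and 0 CPM in low class II border macrophages, a ratio of the pooled counts of 197 (50.6 to 1695) on 34 and 2 UMIs, with its counting interval, and an adjusted p of 1.79e-11. All 34 UMIs came from the barcodes at 4% or more, where 8 of the 12 R1 barcodes and 3 of the 8 R2 barcodes had one. Ciita did not pass without barcodes over 5000 UMIs (log2 fold change 5.64, adjusted p = 0.0750), and H2-DMb2 was not tested there. H2-DMb2, the second H2-DM beta chain gene, stood at 97.8 CPM in R1 and 119.8 CPM in R2 in the class II barcodes, against 2.69 and 3.33 CPM in low class II border macrophages (log2 fold change 5.17 ± 0.83 (SE), adjusted p = 1.55e-06). H2-Oa, a chain of the H2-DM inhibitor H2-O, stood at 60.2 CPM in R1 and 44.9 CPM in R2 in the class II barcodes, against 3.59 and 0 CPM in low class II border macrophages (log2 fold change 4.85 ± 1.03 (SE), adjusted p = 4.97e-04). Reads of the near-identical H2-DMb1 and H2-DMb2 may have been split between them. Ifi30, the thiol reductase of endosomes, stood at 421 CPM in R1 and 359 CPM in R2 in the class II barcodes, against 232 and 202 CPM in low class II border macrophages (log2 fold change 0.92 ± 0.23 (SE), adjusted p = 0.00494). Ctss, the cathepsin that cuts the invariant chain, stood at 2039 CPM in R1 and 2710.2 CPM in R2 in the class II barcodes, against 1333 and 1521 CPM in low class II border macrophages (log2 fold change 0.75 ± 0.16 (SE), adjusted p = 6.33e-04). Neither Ifi30 nor Ctss passed without the barcodes over 5000 UMIs, where their adjusted p was 0.627 and 0.445, and the fold changes of Ifi30 and H2-Oa turned to -0.63 and -2.79 on the log2 scale. The endosomal protease Lgmn was lower, at 782 and 584 CPM in class II barcodes against 1328 and 1278 CPM in low class II ones (adjusted p = 5.33e-04). Ctsl, a further one, was lower at 331 and 284 CPM in class II barcodes against 559.9 and 593 CPM in low class II ones (adjusted p = 0.00997). The promoter factors did not pass. Among them, Rfx5 stood at 15.05 and 0 CPM in class II barcodes against 7.18 and 9.14 CPM in low class II ones. Nfya stood at 30.1 and 14.97 CPM in class II barcodes against 33.2 and 25.8 CPM in low class II ones. The costimulatory gene Cd86 did not pass, at 82.8 and 89.8 CPM in class II barcodes against 97.8 and 109.7 CPM in low class II ones (adjusted p = 0.844). In all, 7 of the 19 members tested were higher and 2 lower, beside 2.96% higher and 1.91% lower over all genes tested. The list's median log2 fold change was 0.34, beside -0.23 over all genes tested. Ciita and H2-DMb2 passed the filter on low counts only through their levels in the class II barcodes, so they could only be called higher. With the barcodes over 5000 UMIs left out, 2 of 16 were higher, H2-DMa and H2-DMb1, and 0 lower, with a median of -0.37 beside -0.50 over all genes tested there. The same 2 of 16 were higher and 1, Lgmn, lower without dendritic cell and monocyte markers, with a median of -0.94 beside -0.90.

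Genes of the LYVE1-type resident macrophage were lower. Lyve1, the hyaluronan receptor, stood at 30.1 CPM in R1 and 29.9 CPM in R2 in the class II barcodes, against 364 and 698 CPM in low class II border macrophages (log2 fold change -3.95 ± 0.40 (SE), adjusted p = 4.35e-13). Ednrb, an endothelin receptor, had 2 UMIs in the class II barcodes (7.52 and 14.97 CPM in class II barcodes against 165 and 152 CPM in low class II ones), a ratio of 0.0632 (0.00763 to 0.23), with an adjusted p of 2.99e-06. Slc40a1, the iron exporter ferroportin, had 3 UMIs (15.05 and 14.97 CPM in class II barcodes against 170.5 and 185 CPM in low class II ones), a ratio of 0.0845 (0.0174 to 0.249), with an adjusted p of 2.97e-06. Of 22 list members tested, 16 were lower and 0 higher, beside 1.91% lower and 2.96% higher over all genes tested. The median log2 fold change was -1.50, beside -0.23 over all genes tested. Without barcodes over 5000 UMIs 10 of the members were lower, and without dendritic cell and monocyte markers 14 were lower and 1, Ccl8, higher, a gene named here after its value was seen. The list's medians in these settings were -1.31 and -1.50, beside -0.50 and -0.90 over all genes tested there. Lyve1, Ednrb and Slc40a1 were lower in both of these settings.

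Among scavenger and lectin receptors, 6 of 22 were higher and 3 lower (median -0.51), beside 2.96% higher and 1.91% lower over all genes tested. Mgl2, a galactose-type lectin, stood at 1196 CPM in R1 and 1378 CPM in R2 in the class II barcodes, against 197 and 151 CPM in low class II border macrophages (log2 fold change 2.90 ± 0.18 (SE), adjusted p = 4.01e-24). Lgals3, galectin-3, stood at 1174 CPM in R1 and 344 CPM in R2 in the class II barcodes, against 169.6 and 55.7 CPM in low class II border macrophages (log2 fold change 2.83 ± 0.22 (SE), adjusted p = 9.67e-19), with R1 above R2 in the class II barcodes. Clec12a stood at 105 and 195 CPM in class II barcodes against 33.2 and 32.4 CPM in low class II ones. Lower was Cd209b, a lectin of marginal zone macrophages in the spleen, with 3 UMIs in the class II barcodes (22.6 and 0 CPM in class II barcodes against 97.8 and 59.9 CPM in low class II ones), a ratio of 0.192 (0.0393 to 0.571). Clec4n was lower at 90.3 and 44.9 CPM in class II barcodes against 248 and 303 CPM in low class II ones. Cd68, a lysosomal marker of macrophages, was lower at 331 and 449 CPM in class II barcodes against 632 and 627 CPM in low class II ones (adjusted p = 0.0417). The list had 0 of 20 higher and 2 lower without barcodes over 5000 UMIs, and without dendritic cell and monocyte markers 0 of 21 were higher and 3 lower. In the first of these settings the log2 fold change of Mgl2 was 0.62, and Lgals3 was not tested. Clec12a at 1.56, Clec4n at -1.07 and Cd68 at -0.83 did not pass there, and Cd209b did.

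Chemokine and cytokine genes and their receptors had 8 of 31 members higher and 1 lower, beside 2.96% higher and 1.91% lower over all genes tested. The list's median was 0.57, and 1.03 with the 4 genes that were at 0 on a side held at their bound. Over all genes tested these medians were -0.23 and -0.072. Ccr2 stood at 692 CPM in R1 and 614 CPM in R2 in the class II barcodes, against 53.8 and 14.96 CPM in low class II border macrophages (log2 fold change 4.29 ± 0.28 (SE), adjusted p = 1.81e-23). Its 60 and 18 low class II UMIs came from 7 barcodes in R1 and 1 in R2. The 92 and 41 class II UMIs of Ccr2 came from 7 of the 35 barcodes of R1 and 5 of the 24 of R2. Of these UMIs, 78 in R1 and all 41 in R2 were in barcodes at 4% or more. The chemokine Ccl4 stood at 67.7 CPM in R1 and 59.9 CPM in R2 in the class II barcodes, against 7.18 and 9.98 CPM in low class II border macrophages (log2 fold change 3.00 ± 0.61 (SE), adjusted p = 2.47e-04). Csf1r, the receptor on which macrophages depend for survival, was the lower member, at 647 CPM in R1 and 404 CPM in R2 in the class II barcodes, against 1361 and 1405 CPM in low class II border macrophages (log2 fold change -1.30 ± 0.20 (SE), adjusted p = 1.03e-06). With barcodes over 5000 UMIs left out, 3 of 29 were higher and 1 lower, beside 0.198 and 0.527% of all genes tested there. Ccr2, Ccl4 and Csf1r passed there in the same direction. The tally without dendritic cell and monocyte markers was 1 of 28 higher and 2 lower, beside 0.0994 and 1.57% of all genes tested there. The median was -0.42, beside -0.90 over all genes tested there.

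Of 21 Fc receptor and immune signalling genes, 6 were higher and 1 lower (median -0.011), beside 2.96% higher and 1.91% lower over all genes tested (median -0.23). The tally turned, without dendritic cell and monocyte markers, to 1 of 20 higher, Cd52, and 5 lower, Fcgr2b, Fcer1g, Fcrls, Tyrobp and Lst1 (median -0.56, beside -0.90 over all genes tested there). It was, without barcodes over 5000 UMIs, 1 of 21 higher, Cd52, and 1 lower, Fcrls. Several of these genes were named after their values were seen. Cd52, a small glycoprotein of leukocyte surfaces, stood at 1542 CPM in R1 and 1602 CPM in R2 in the class II barcodes, against 229.7 and 230.3 CPM in low class II border macrophages (log2 fold change 2.81 ± 0.18 (SE), adjusted p = 7.28e-24), and passed in the same direction without barcodes over 5000 UMIs, without dendritic cell and monocyte markers and after thinning to 500 UMIs. Lsp1, an actin-binding protein of leukocytes, stood at 677 CPM in R1 and 389 CPM in R2 in the class II barcodes, against 66.4 and 24.9 CPM in low class II border macrophages (log2 fold change 3.65 ± 0.29 (SE), adjusted p = 2.04e-18). Cd72, a C-type lectin, stood at 52.7 and 89.8 CPM in class II barcodes against 2.69 and 4.99 CPM in low class II ones. Fcrls, a receptor-like gene of microglia and border macrophages, was lower, at 542 CPM in R1 and 449 CPM in R2 in the class II barcodes, against 1341 and 1498 CPM in low class II border macrophages (log2 fold change -1.47 ± 0.21 (SE), adjusted p = 8.18e-08). Of 19 complement genes, 2 were higher and 4 lower, beside 2.96% higher and 1.91% lower over all genes tested. The integrin chain Itgax was higher at 45.1 and 74.9 CPM in class II barcodes against 0 and 3.33 CPM in low class II ones. The filter on low counts kept Itgax only through the class II barcodes, so it could only be called higher. Its partner chain Itgb2 was higher at 173 and 149.7 CPM in class II barcodes against 62.8 and 71.5 CPM in low class II ones. C1qc, a chain of C1q, was lower at 2129 CPM in R1 and 3354 CPM in R2 in the class II barcodes, against 4585 and 5130.3 CPM in low class II border macrophages (log2 fold change -0.83 ± 0.17 (SE), adjusted p = 1.70e-04). The receptor C5ar1 was lower at 22.6 and 59.9 CPM in class II barcodes against 121 and 172 CPM in low class II ones. With barcodes over 5000 UMIs left out, 0 of 17 complement genes passed, and without dendritic cell and monocyte markers 0 were higher and 1 lower. Cd72 did not pass without barcodes over 5000 UMIs, though its log2 fold change was 4.34 there and 4.21 with all class II barcodes (adjusted p = 0.103). C5ar1 did not pass either, with -1.58 there and -1.93 with all class II barcodes. The log2 fold changes of Lsp1, Itgb2 and C1qc, which did not pass, were 2.01, 0.34 and -0.55 there. Itgax was not tested there.

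Apoe and several iron and lysosome genes were lower in the summed class II barcodes. In the barcodes at 4% or more Apoe stood at 6044 and 14312 CPM and the cathepsin gene Ctsd at 162 and 69.8 CPM. At 0.3 to 1% Apoe stood at 40464 and 55218 CPM and Ctsd at 1116 and 1987 CPM, closer to the low class II levels below. Cd63 was lower at 0.3 to 1% as well, at 527 and 783 CPM. Apoe stood at 22397 CPM in R1 and 28121 CPM in R2 in the class II barcodes, against 45657 and 47136 CPM in low class II border macrophages (log2 fold change -0.86 ± 0.16 (SE), adjusted p = 3.36e-05). Cd9, a tetraspanin, was higher at 166 and 239.6 CPM in class II barcodes against 61.9 and 84.8 CPM in low class II ones. Over all genes tested, 2.96% were higher and 1.91% lower, beside which the lipid, iron and lysosome tallies stand. In the list of lipid handling genes 2 of 14 were higher and 1 lower. In the list of iron and heme genes 1 of 13 was higher, Cybb of the phagocyte oxidase at 572 and 374 CPM in class II barcodes against 297 and 289 CPM in low class II ones, and 5 were lower. Hmox1, heme oxygenase, was lower at 37.6 and 135 CPM in class II barcodes against 155 and 221 CPM in low class II ones. Blvrb, biliverdin reductase B, was lower at 293 and 389 CPM in class II barcodes against 684 and 758 CPM in low class II ones. Hpgds, a prostaglandin D synthase, was lower at 188 and 179.7 CPM in class II barcodes against 337 and 348 CPM in low class II ones. Of 26 lysosome genes 3 were higher and 7 lower (median -0.62). Cd63, a lysosomal tetraspanin, stood at 316 CPM in R1 and 434 CPM in R2 in the class II barcodes, against 1071 and 1072 CPM in low class II border macrophages (log2 fold change -1.52 ± 0.21 (SE), adjusted p = 2.16e-08). Ctsd, cathepsin D, stood at 564 CPM in R1 and 689 CPM in R2 in the class II barcodes, against 1571 and 1752 CPM in low class II border macrophages (log2 fold change -1.39 ± 0.19 (SE), adjusted p = 1.60e-08). Both were lower also without barcodes over 5000 UMIs and without dendritic cell and monocyte markers. Psap, which gives the saposins, was higher at 1625 and 1123 CPM in class II barcodes against 862 and 821 CPM in low class II ones. Cathepsin H, Ctsh, was higher at 933 and 794 CPM in class II barcodes against 532 and 632 CPM in low class II ones. The proton pump chain Atp6v1a was lower at 37.6 and 29.9 CPM in class II barcodes against 109 and 107 CPM in low class II ones and passed also without barcodes over 5000 UMIs. In that setting Apoe, Cybb, Hmox1, Blvrb, Hpgds, Psap and Ctsh did not pass, and the log2 fold change of Cd9 turned to -1.31. Those of Apoe, Hmox1, Blvrb and Hpgds were -0.46, -0.74, -0.68 and -0.30 there, and those of Psap, Ctsh and Cybb were 0.35, 0.16 and 0.10. No member of these 3 lists was higher there, and 0 of 14 lipid handling, 1 of 13 iron and heme and 3 of 26 lysosome genes were lower. Without dendritic cell and monocyte markers none was higher, and 2, 4 and 6 were lower.

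Immediate-early and heat shock genes, which respond to tissue dissociation, had 14 of 25 members higher and 1 lower. Over all genes tested 2.96% were higher and 1.91% lower, and the list's median of 1.29 stands beside -0.23. Btg2, an antiproliferative immediate-early gene, stood at 376 CPM in R1 and 269.5 CPM in R2 in the class II barcodes, against 68.2 and 46.6 CPM in low class II border macrophages (log2 fold change 2.55 ± 0.28 (SE), adjusted p = 1.79e-11). Of the near-identical Hsp70 genes, Hspa1b stood at 82.8 and 29.9 CPM in class II barcodes against 5.38 and 3.33 CPM in low class II ones. Hspa1a stood at 75.2 and 44.9 CPM in class II barcodes against 8.08 and 6.65 CPM in low class II ones. Hspa5, the chaperone of the endoplasmic reticulum, was lower at 361 and 404 CPM in class II barcodes against 556 and 767 CPM in low class II ones. In this list 1 of 24 was higher, Jun, named after its value was seen, and 0 lower without barcodes over 5000 UMIs. Of all genes tested there, 0.198% were higher and 0.527% lower. Btg2, Hspa1a and Hspa5 did not pass there, with log2 fold changes of 1.62, 2.03 and -0.37. There were 0 of 25 higher and 1 lower without dendritic cell and monocyte markers, beside 0.0994 and 1.57% of all genes tested there.

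The tallies of the next lists stand beside 2.96% higher and 1.91% lower over all genes tested. Of 29 macrophage transcription factor genes 4 were higher and 2 lower. Maf, a transcription factor of macrophages, was lower at 527 CPM in R1 and 809 CPM in R2 in the class II barcodes, against 1638 and 1945 CPM in low class II border macrophages (log2 fold change -1.46 ± 0.20 (SE), adjusted p = 2.91e-08). Id3 was lower at 45.1 and 44.9 CPM in class II barcodes against 129 and 131 CPM in low class II ones. Class I presentation genes had 2 of 22 members higher and 0 lower. H2-D1 stood at 2031 and 1557 CPM in class II barcodes against 1090.2 and 1189 CPM in low class II ones. H2-T23 stood at 308 and 314 CPM in class II barcodes against 176 and 146 CPM in low class II ones, and reads of these related class I genes may be shared. Interferon response genes had 1 of 34 higher, about the share over all genes tested, and 2 lower. Ifitm3 was higher at 1083 and 1123 CPM in class II barcodes against 708 and 734 CPM in low class II ones. Gbp7 was lower at 60.2 and 44.9 CPM in class II barcodes against 180.4 and 213 CPM in low class II ones. Bst2 was lower at 534 and 689 CPM in class II barcodes against 865 and 1028 CPM in low class II ones. Of 18 growth factor genes 1 was higher, Pdgfb at 82.8 and 165 CPM in class II barcodes against 33.2 and 27.4 CPM in low class II ones. Grn, progranulin, was lower at 497 and 374 CPM in class II barcodes against 688 and 785 CPM in low class II ones. Of 11 cell division genes H2afz was higher at 752 and 674 CPM in class II barcodes against 477 and 462 CPM in low class II ones. Hmgb2 was lower at 105 and 105 CPM in class II barcodes against 337 and 242 CPM in low class II ones. Maf passed in the same direction without barcodes over 5000 UMIs. The other genes of these lists named here did not, and the log2 fold changes of Ifitm3 and H2afz turned to -0.41 and -0.47. Bst2, with -0.67 there and -0.61 with all class II barcodes, and Gbp7, with -1.47 there and -1.77 with all, missed the threshold with like fold changes. So did Pdgfb, with 1.61 there and 1.93 with all class II barcodes. The log2 fold changes of H2-D1 and H2-T23 were 0.38 and 0.51 there, and those of Id3, Grn and Hmgb2 were -0.99, -0.42 and -0.69.

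**Figure D4:**
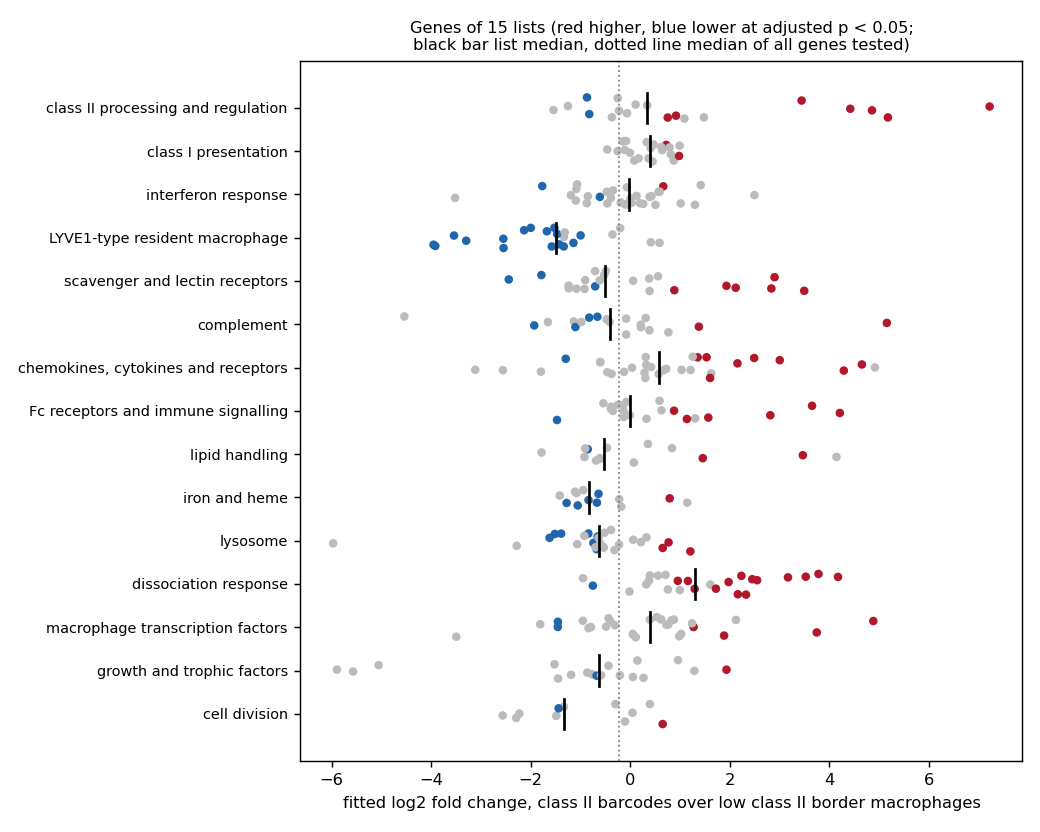
Fitted log2 fold change of class II barcodes over low class II border macrophages for each tested gene of 15 lists, red where higher and blue where lower at an adjusted p under 0.05, grey otherwise, with each list's median as a bar and the median of all genes tested, -0.23, as a dotted line. Members of the LYVE1-type list lay to the left with 16 of 22 lower, and those of the dissociation list to the right with 14 of 25 higher. Over all genes tested 1.91% were lower and 2.96% higher. Points of genes with 0 UMIs on a side depend on the fit's prior count.

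Several of the 10 genes with the highest fold changes had nearly no UMIs in low class II border macrophages, and their class II UMIs came from few barcodes. Any of them that the filter on low counts kept only through the class II barcodes could only be called higher. Every UMI that class II barcodes held of Tnip3, Bcl2a1a, Jaml, Ear2, Slamf7 and Slamf9 was in the 20 barcodes at 4% or more, whose border genes were low. Tnip3 was seen in 3 of these barcodes in R1 and 1 in R2, Jaml in 4 and 1, and Ear2 in 5 and 1. Tnip3, an inhibitor of NF-kappaB signalling, had 135 and 44.9 CPM in class II barcodes against 0 and 0 CPM in low class II ones, at least 81.2-fold higher against a floor of 3 UMIs over the group. Bcl2a1a, of a family of near-identical survival genes, had 60.2 and 105 CPM in class II barcodes against 0 and 0 CPM in low class II ones, at least 58.02-fold higher. Jaml, an adhesion molecule of leukocytes, had 67.7 and 59.9 CPM in class II barcodes against 0 and 0 CPM in low class II ones, at least 50.3-fold higher. Ear2, an eosinophil-type ribonuclease of a multigene family, had 218 and 44.9 CPM in class II barcodes against 0.897 and 0 CPM in low class II ones, a ratio of 371 (62.03 to 15119) on 32 and 1 UMIs. Slamf7, a receptor of activated leukocytes, had 143 and 135 CPM in class II barcodes against 0 and 2.49 CPM in low class II ones, a ratio of 108 (33.5 to 557) on 28 and 3 UMIs. Plbd1, a phospholipase B-like gene, stood at 474 CPM in R1 and 344 CPM in R2 in the class II barcodes, against 17.9 and 0 CPM in low class II border macrophages (log2 fold change 5.57 ± 0.41 (SE), adjusted p = 3.70e-20) and also passed without barcodes over 5000 UMIs and without dendritic cell and monocyte markers. Slamf9 stood at 97.8 and 209.6 CPM in class II barcodes against 4.49 and 1.66 CPM in low class II ones. The lectin Clec4b1 stood at 173 and 119.8 CPM in class II barcodes against 3.59 and 0.831 CPM in low class II ones. Slamf7 was seen in 6 barcodes of R1 and 4 of R2 at 4% or more, and Slamf9 in 7 and 5. In the fit without barcodes over 5000 UMIs, Tnip3, Jaml, Ear2, Slamf7 and Clec4b1 were not tested, and Bcl2a1a and Slamf9 did not pass (adjusted p = 0.185 and 0.355).

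The 10 lowest began with the globins. Hba-a1 stood at 203 CPM in R1 and 225 CPM in R2 in the class II barcodes, against 6107 and 3675 CPM in low class II border macrophages (log2 fold change -4.66 ± 0.39 (SE), adjusted p = 2.33e-17). Hba-a2, Hbb-bt and Hbb-bs were lower likewise, with Hbb-bs at 759.8 and 988 CPM in class II barcodes against 18748 and 11699 CPM in low class II ones. Globin UMIs are red cell RNA found in most barcodes: at least 2 erythroid marker UMIs were in 82.9 and 75% of class II barcodes and in 89.0 and 92.6% of low class II ones. The erythroid list summed to 1279 and 1572 CPM in class II barcodes and 33639 and 21146 CPM in low class II ones. The globins did not pass without barcodes over 5000 UMIs, with Hba-a1 at a log2 fold change of -0.59. Clcn5, a chloride exchanger of endosomes, had 1 UMI in the class II barcodes (7.52 and 0 CPM in class II barcodes against 75.4 and 93.9 CPM in low class II ones), a ratio of 0.0589 (0.00148 to 0.332). Prps2 and Serpinb8, a nucleotide synthesis enzyme and a protease inhibitor, also had 1 UMI each, with ratios of 0.0631 (0.00159 to 0.356) and 0.0768 (0.00193 to 0.435). Clcn5, Prps2 and Serpinb8 did not pass without barcodes over 5000 UMIs (adjusted p = 0.212, 0.262 and 0.438).

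**Figure D5:**
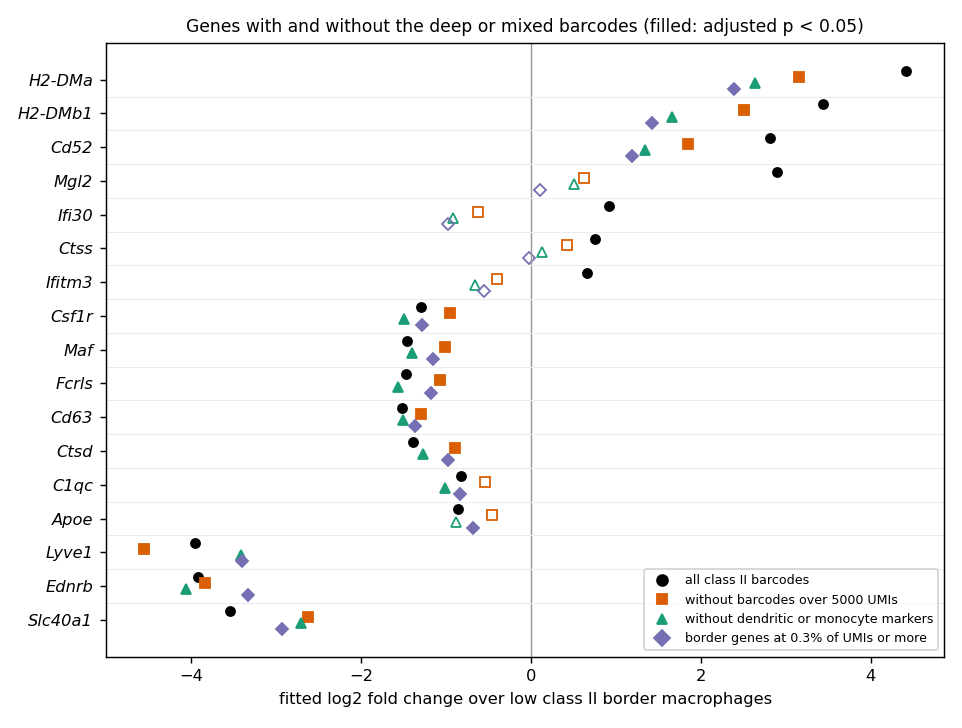
Fitted log2 fold change over low class II border macrophages (x) for 17 genes, with all class II barcodes and with 3 subsets of them, filled where the adjusted p was under 0.05. H2-DMa, H2-DMb1 and Cd52 stayed right of 0 and Csf1r, Maf, Fcrls, Cd63, Ctsd, Lyve1, Ednrb and Slc40a1 left of it, all filled, while Mgl2, Ifi30, Ctss and Ifitm3 were filled with all class II barcodes alone.

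Microglia, the macrophages of the brain tissue, were 116 barcodes in R1 and 60 in R2, with 406781 and 186290 UMIs. Against them 464 of 9835 genes (4.72%) were higher and 405 (4.12%) lower in class II barcodes. Of the class II list, 5 of 19 were higher and 3 lower. Ciita and H2-DMb2, kept by the filter on low counts only through the class II barcodes, could again only be called higher. H2-DMa stood at 888 CPM in R1 and 1093 CPM in R2 in the class II barcodes, against 226 and 150.3 CPM in microglia (log2 fold change 2.42 ± 0.21 (SE), adjusted p = 1.36e-16). The same class II barcodes serve both comparisons. H2-DMb1 stood at 722 CPM in R1 and 689 CPM in R2 in the class II barcodes, against 150.0 and 37.6 CPM in microglia (log2 fold change 2.80 ± 0.27 (SE), adjusted p = 7.08e-15). H2-DMb2 stood at 97.8 and 119.8 CPM in class II barcodes against 2.46 and 16.1 CPM in microglia. Ifi30 stood at 421 and 359 CPM in class II barcodes against 231 and 183 CPM in microglia. Ciita had 34 UMIs in class II barcodes and 0 in microglia, at least 33.7-fold higher. The 3 lower members were the endosomal proteases Ctss, Ctsl and Lgmn. Ctss stood at 2039 and 2710.2 CPM in class II barcodes against 5802 and 6146 CPM in microglia (log2 fold change -1.21 ± 0.16 (SE), adjusted p = 4.90e-09), although it was higher than in low class II border macrophages. Ctsl stood at 331 and 284 CPM in class II barcodes against 1330.0 and 1347 CPM in microglia. Lgmn stood at 782 and 584 CPM in class II barcodes against 3306 and 3382 CPM in microglia. Leaving out barcodes over 5000 UMIs, 2 of 16 members were higher, H2-DMa and H2-DMb1, and the same 3 lower. Without dendritic cell and monocyte markers 1 of 16 was higher, H2-DMb1, and the same 3 lower.

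Of the LYVE1-type list, 15 of 22 genes were higher and 0 lower than in microglia. Over all genes tested against microglia, 4.72% were higher and 4.12% lower. Without barcodes over 5000 UMIs 11 of 21 members of the list were higher, and without dendritic cell and monocyte markers 7 of 22. The choice of both classes by border genes also favours higher levels of border macrophage genes in the class II barcodes. The chemokine Ccl8 had 158 and 419 CPM in class II barcodes against 0 and 0 CPM in microglia, at least 48.5-fold higher. The hemoglobin scavenger receptor Cd163 had 188 and 89.8 CPM in class II barcodes against 0 and 0 CPM in microglia, at least 30.7-fold higher. Lgals3 had 1174 and 344 CPM in class II barcodes against 0 and 0 CPM in microglia, at least 177-fold higher. The lipid scavenger receptor Cd36 had 75.2 and 195 CPM in class II barcodes against 0 and 0 CPM in microglia, at least 22.8-fold higher. Apoe stood at 22397 CPM in R1 and 28121 CPM in R2 in the class II barcodes, against 3149 and 2008 CPM in microglia (log2 fold change 3.39 ± 0.17 (SE), adjusted p = 3.47e-30). The lipid transfer protein Pltp stood at 579 and 105 CPM in class II barcodes against 34.4 and 21.5 CPM in microglia. Ccr2 stood at 692 CPM in R1 and 614 CPM in R2 in the class II barcodes, against 27.04 and 0 CPM in microglia (log2 fold change 5.38 ± 0.38 (SE), adjusted p = 1.65e-21). Cd52 stood at 1542 and 1602 CPM in class II barcodes against 263 and 209 CPM in microglia.

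Several genes known from microglia were lower, a direction that the choice of the 2 classes by microglia genes also favours. Sall1, a transcription factor of microglial identity, had 0 UMIs in the class II barcodes and 234 and 236 CPM in microglia, at least 15.6-fold lower. Ecscr, Numb, Csmd3, Nav3 and the fructose carrier Slc2a5 also had 0 UMIs, at least 15.3, 13.1, 13.7, 12.7 and 11.4-fold lower. Ctsd stood at 564 CPM in R1 and 689 CPM in R2 in the class II barcodes, against 5256 and 5132 CPM in microglia (log2 fold change -2.93 ± 0.19 (SE), adjusted p = 6.22e-24). The cystatin Cst3 stood at 8869.9 and 8609.8 CPM in class II barcodes against 54467 and 52102 CPM in microglia. The fractalkine receptor Cx3cr1 stood at 331 CPM in R1 and 569 CPM in R2 in the class II barcodes, against 3119.6 and 3162 CPM in microglia (log2 fold change -2.75 ± 0.20 (SE), adjusted p = 1.14e-20). The TGF-beta receptor Tgfbr1 stood at 97.8 and 119.8 CPM in class II barcodes against 836 and 886 CPM in microglia. Trem2, a lipid-sensing receptor, stood at 421 and 464 CPM in class II barcodes against 2367 and 2421 CPM in microglia. Irf8, a factor of myeloid development, stood at 75.2 and 195 CPM in class II barcodes against 548 and 725 CPM in microglia. Il1a had 1 UMI in the class II barcodes (0 and 14.97 CPM in class II barcodes against 76.2 and 59.05 CPM in microglia), a ratio of 0.0707 (0.00175 to 0.416). Without barcodes over 5000 UMIs 114 genes (1.25%) were higher and 221 (2.43%) lower than in microglia. Apoe, Ccl8, Ctsd, Cst3, Cx3cr1, Tgfbr1, Trem2 and Irf8 passed there in the same direction. Ciita, Ifi30 and Il1a did not (adjusted p = 0.0759, 0.854 and 0.278), and Lgals3 and H2-DMb2 were not tested. H2-DMa and Cd52 did not pass against microglia without dendritic cell and monocyte markers, with log2 fold changes of 1.22 and 0.56 (adjusted p = 0.156 and 0.564).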

How the data were processed

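Libraries R1 and R2 hold droplet single-cell RNA of mouse leptomeninges. Values are UMI counts, deposited unnormalized as a matrix for each library and produced by Cell Ranger 4.0.0 on build mm10 per the file headers and the submitters' processing notes; the deposited feature and barcode lists (unit: other) name the 32287 features and the barcodes. The labels say that at most 5000 cells per sample were aimed at. Classes were cut by summed marker UMIs: microglia as in the text, and endothelial-like and fibroblast-like barcodes with at least 4 UMIs of their own markers and at most 1 UMI each of the border, microglia and other class's markers. No doublet caller was run and no doublet was removed.

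UMI counts were summed per library and class and tested with edgeR 4.0.16 in R 4.3.3 (TMM, filterByExpr, library as a block because both classes come from the same library, quasi-likelihood test, 5 classes, 4 residual degrees of freedom, biological coefficient of variation 0.100), with Benjamini-Hochberg adjustment over all genes tested. The plan asked for at least 50 barcodes per class and library, which the class II barcodes (35 and 24) do not reach; the fit was made with them as they are. A gene that filterByExpr kept only through the class II barcodes could only be called higher in them. DESeq2 1.42.0 was an alternative. On simulated counts for class II against low class II barcodes over 8025 genes, 57 of 100 genes changed by a log2 fold change of 2 and 79 of 100 changed by 3 were recovered, and 1.45% of calls were false. The simulation gave all classes the low class II profile and 1 common spread, with no library difference. It did not copy the 5 deepest class II barcodes, which held 45.8 and 56.9% of the class's UMIs. Its rates therefore may not hold for these data. Python 3.11.15, scipy 1.17.1 and matplotlib 3.10.9 made the rest. Levels are CPM of a class's UMIs, standard errors are the log2 fold change over the root of its F statistic, and ratios of counts of 1 to 3 have exact 95% intervals.

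The members, lists and tests were chosen with earlier results of these data known. Named genes were, per comparison, among the 10 highest and 10 lowest passing genes, and up to 3 higher and 3 lower per list, with the same direction in both libraries and 50 CPM or more as the mean of the higher class, and class II list members. Whether the counting used strand is not given in the sources used here; of 99 such genes, 33 overlap a gene on the opposite strand in the GENCODE annotation of GRCm38. Some items are not reported here.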

Additional observations from a re-analysis of the deposited data

How the results depend on the processing

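The counts of class II barcodes against low class II border macrophages stayed within 1.5 times (245 to 300 higher, 138 to 273 lower) with DESeq2's size factors, no filter on low counts, the 3 myeloid classes alone, at most 5% mitochondrial UMIs, at least 800 genes, a class II threshold of 0.6% with low class II under 0.15%, genes at 50 CPM or more, and without the library as a block (262 higher, 138 lower; 424 and 365 against microglia); at 1% Malat1 or more they were 234 and 177. DESeq2's Wald test gave 246 higher and 53 lower, and 373 and 201 against microglia. Higher and lower calls were 18 and 48 without barcodes over 5000 UMIs, 10 and 158 without dendritic cell and monocyte markers, 15 and 168 with border genes at 0.3% or more, 36 and 10 under 1% Malat1, 7 and 104 after thinning to 500 UMIs, 4 and 21 without markers of other cells (the erythroid list aside), and 3 and 0 of 722 genes without any barcode holding 2 UMIs of another cell type's markers, the monocyte and microglia lists aside (7 class II barcodes, 95 genes at an unadjusted p under 0.05). Against microglia they were 278 and 291 at 1% Malat1 or more, 107 and 74 under it, 27 and 97 after thinning, 114 and 221 without barcodes over 5000 UMIs, 57 and 160 without dendritic cell and monocyte markers, 131 and 416 with border genes at 0.3% or more, 18 and 52 without markers of other cells and 2 and 7 without any such barcode. In these settings fewer barcodes or UMIs were left, and the median log2 fold change over all genes against low class II ones moved to -0.50 without barcodes over 5000 UMIs, -0.83 after thinning and -0.90 without dendritic cell and monocyte markers, so that calls of lower genes are relative to that shift. The cause was not tested. The settings without barcodes over 5000 UMIs, without the marker groups, with border genes at 0.3% or more and at 50 CPM or more were chosen after the data were seen. No count can be tested with a library left out, since 1 library leaves no residual degrees of freedom; of the 99 named fold changes, most of them chosen for the same direction in both libraries, 48 moved by more than the SD of the 2 libraries without R1 and 37 without R2.

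Log2 fold changes against low class II border macrophages that changed sign were: without barcodes over 5000 UMIs, Cd9 -1.31, H2-Oa -2.79, H2afz -0.47, Hbb-bt 0.086, Ifi30 -0.63, Ifitm3 -0.41. Without dendritic cell and monocyte markers, Cd9 -0.91, Ctsh -0.13, H2-D1 -0.0050, H2afz -0.98, Ifi30 -0.92, Ifitm3 -0.66, Itgb2 -0.85, Psap -0.073. With border genes at 0.3% of UMIs or more, Cd9 -1.77, Ctss -0.022, Cybb -0.065, H2-Oa -3.28, H2afz -0.93, Ifi30 -0.98, Ifitm3 -0.55, Itgb2 -0.67, Psap -0.076. Without markers of other cells, the erythroid list aside, Cd9 -0.88, Ctsh -0.17, Cybb -0.24, H2-D1 -0.17, H2afz -0.73, Ifi30 -1.03, Ifitm3 -0.87, Itgb2 -0.12. After thinning to 500 UMIs, Cd9 -1.41, Ctsh -0.25, Cybb -0.096, H2-D1 -0.11, H2afz -0.63, Hspa1a -2.59, Ifi30 -0.10, Ifitm3 -0.72, Itgb2 -0.066. Without any barcode with 2 UMIs of another cell type's markers, Apoe 0.13, Cd68 0.42, Cd9 -6.69, Ctsl 0.77, H2afz -0.60, Hpgds 0.95, Hspa5 0.0078, Ifitm3 -2.18, Lgmn 0.34. Under 1% Malat1, Cd9 -0.70. At 1% Malat1 or more, Hmgb2 0.058, Ifitm3 -0.16. Against microglia, without barcodes over 5000 UMIs, Ifi30 -0.30; with border genes at 0.3% of UMIs or more, Ifi30 -0.83; without markers of other cells, the erythroid list aside, Ifi30 -0.095; without any barcode with 2 UMIs of another cell type's markers, Ctsl 0.12. The share of class II barcodes was 13.99 and 7.74% at a threshold of 0.15%, 4.802 and 2.53% at 0.6%, 16.7 and 10.7% without any barcode holding other markers, 11.97% in R1 at 1% Malat1 or more and 5% in R1 with at least 6 border UMIs. Unthinned shares with a UMI were 48.6 and 45.8% for H2-DMb1, against 27.6 and 18.8% at 1000 UMIs, and 22.9% for Ciita in R1, against 6.90%.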
